A study of Mus musculus with 6 samples.

Results

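Interferon-stimulated genes were examined in atrial tissue of lean and obese mice, as 40 genes fixed by name and looked up by symbol among the 43432 named genes of the table. All 40 were found, each as 1 row, and all 40 passed the filter on low values (a mean of at least 10 normalized counts over the 6 mice), as did 15275 of the 24679 genes with any read. Wild-type C57/Bl6J mice received a high-fat diet (HFD; obese, n = 3) or control chow (lean, n = 3) from 6 weeks of age for 10 weeks, and RNA of the right and left atria was sequenced. The titles of the samples gave the groups used here, while the treatment field of the labels gave the opposite diet for all 6 samples, so every direction below rests on the titles, whose sample codes stand under case (HFD) and control columns in the table. Obesity followed from the diet alone in this model, with no transgene, and nothing in the labels stated which mice shared a cage or litter, so the p-values measure only the spread between these mice.

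Interferons are secreted proteins that cells release on sensing foreign or misplaced nucleic acid (type I) or that activated T and natural killer (NK) cells release (interferon gamma, type II). Their receptors signal through JAK kinases to transcription factors that bind, in the promoters of the target genes, the interferon-stimulated response element (ISRE) or the gamma-activated site (GAS). The genes so induced block viral entry, translation, replication and budding, and they are expressed at a low level in most tissues, the heart included.

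Values are normalized counts, which are reads per gene divided by 1 factor per mouse. Between 15874251 and 28971508 reads fell on genes, and 3 reads corresponded to 2.05 to 3.41 normalized counts. The deepest library, lean mouse 2, also held the highest mitochondrial share (30.7% of reads, against 19.5% to 24.4% in the others) and the highest summed level of 4 ventricular markers (13770.0, against 4262 to 6415). Atrial markers were abundant in all 6 mice (Nppa, 171702 to 333975 normalized counts), and lower in obese mice 1 and 2 than in the other 4 for Myl7, the atrial myosin light chain (27168 to 31186, against 56346 to 60190). Per kilobase of annotated exon, the most abundant members averaged 2580 normalized counts for Ifitm3, which blocks viral entry at endosomes, 499.7 for Bst2, the tetherin that holds budding virions, and 467 for the secreted lectin-binding protein Lgals3bp. Mx1, of a family of GTPases directed at viral nucleocapsids, was the least abundant on this scale, at 7.57.

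RefSeq promoter windows (GRCm38.p6, 250 bases before to 50 after each start) were available for 30 of the 40 members, as 34 windows. They were searched on both strands for the letters GAAANNGAA, the core of the ISRE, and TTCNNNGAA, those of the GAS, which may overlap one another. The ISRE core letters stood in 19 of the 30 members (63.3%) and in 9.76% of 27025 genes, the GAS letters in 11 (36.7%) and in 9.55%, and both in 8 (26.7%) and in 1.24%. A match describes the letters only. Shown are 150 bases before the start of 7 members on which the results turn, with matched letters in capitals. The first 2 carry overlapping or repeated ISRE core letters, the next 4 carry both motifs, and the last belongs to the member with the smallest p-value. At most 27 of the bases of any one lay in a GENCODE exon of the gene.
Isg15, chr4:156200819-156200968, minus strand: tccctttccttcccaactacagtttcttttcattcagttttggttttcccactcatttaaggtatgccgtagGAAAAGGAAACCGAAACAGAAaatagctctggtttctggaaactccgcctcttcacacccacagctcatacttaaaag
Ifit1, chr19:34640739-34640888, plus strand: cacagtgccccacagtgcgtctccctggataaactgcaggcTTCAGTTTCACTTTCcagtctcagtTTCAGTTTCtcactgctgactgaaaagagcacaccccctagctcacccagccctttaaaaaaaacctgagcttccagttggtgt
Bst2, chr8:71537473-71537622, minus strand: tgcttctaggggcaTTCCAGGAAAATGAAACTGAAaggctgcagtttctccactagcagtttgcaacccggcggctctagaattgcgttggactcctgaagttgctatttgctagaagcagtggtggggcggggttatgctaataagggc
Igtp, chr11:58199406-58199555, plus strand: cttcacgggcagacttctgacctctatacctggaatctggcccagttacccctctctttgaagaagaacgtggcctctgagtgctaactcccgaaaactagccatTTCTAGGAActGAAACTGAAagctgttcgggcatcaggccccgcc
Irgm2, chr11:58214827-58214976, plus strand: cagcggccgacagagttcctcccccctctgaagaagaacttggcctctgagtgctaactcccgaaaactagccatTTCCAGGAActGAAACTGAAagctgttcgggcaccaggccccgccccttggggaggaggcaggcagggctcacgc
Tgtp1, chr11:48992247-48992396, minus strand: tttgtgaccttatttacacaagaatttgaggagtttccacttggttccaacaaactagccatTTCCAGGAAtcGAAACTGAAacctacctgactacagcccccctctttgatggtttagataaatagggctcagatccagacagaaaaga
Trim25, chr11:88999253-88999402, plus strand: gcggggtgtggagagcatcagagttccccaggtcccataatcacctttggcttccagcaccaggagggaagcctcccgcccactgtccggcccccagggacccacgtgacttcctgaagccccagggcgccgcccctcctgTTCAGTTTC
In Igtp, Irgm2 and Tgtp1 the GAS letters were followed after 2 bases by the ISRE core, an arrangement found in 8 of 32851 windows of all genes; it was singled out after the sequences were seen, and these 3 genes belong to 1 family.

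Across all members, no gene passed an adjusted p of 0.05 in limma in either direction, against a background of 0.484% of all genes called higher in obese atria and 0.262% called lower. By edgeR's quasi-likelihood test the count was likewise 0, and DESeq2 called 1 (Trim25, adjusted p = 0.0189; 2.07% of genes were called higher by DESeq2). At an unadjusted p under 0.05, 5 of 40 members were higher (Oas2, Trim25, Mx1, Rsad2 and Ifitm3; background 6.66%) and 0 were lower (background 5.55%). The groups did not overlap in 4 members, all with every obese above every lean mouse (background 8.86%), and no member had every obese below every lean mouse (background 9.17%). The log2 fold change was above 0 in 33 of 40 members (background 50.8%), with a median of 0.22, against 0.00 over all genes tested. In edgeR and DESeq2, which model the reads and not their logarithms, it was above 0 in 38 members, with medians of 0.35. In bulk tissue, fewer cells of a type and less RNA per cell cannot be told apart.

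One mouse held most of this pattern. Obese mouse 3 had the highest value of the 6 mice in 38 of 40 members (95.0%), whereas it was highest in 20.3% of all genes tested. It was at least 1.5 times every other mouse in 20 members (background 2.36%). The mean log2 level over the 40 members was 7.81, 7.73 and 8.86 in obese mice 1, 2 and 3, and 7.73, 7.99 and 7.87 in lean mice 1, 2 and 3. Thus obese mouse 3 lay 1.00 log2 units above the lean mean, while the mean of obese mice 1 and 2 lay at -0.09 relative to it. The spread between obese mice (SD 0.63, n = 3) exceeded the difference between the groups (0.27 log2 units), and the spread between lean mice was smaller (SD 0.13, n = 3). Trim25 and Dtx3l were the 2 exceptions, both highest in obese mouse 2.

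**Figure D1:**
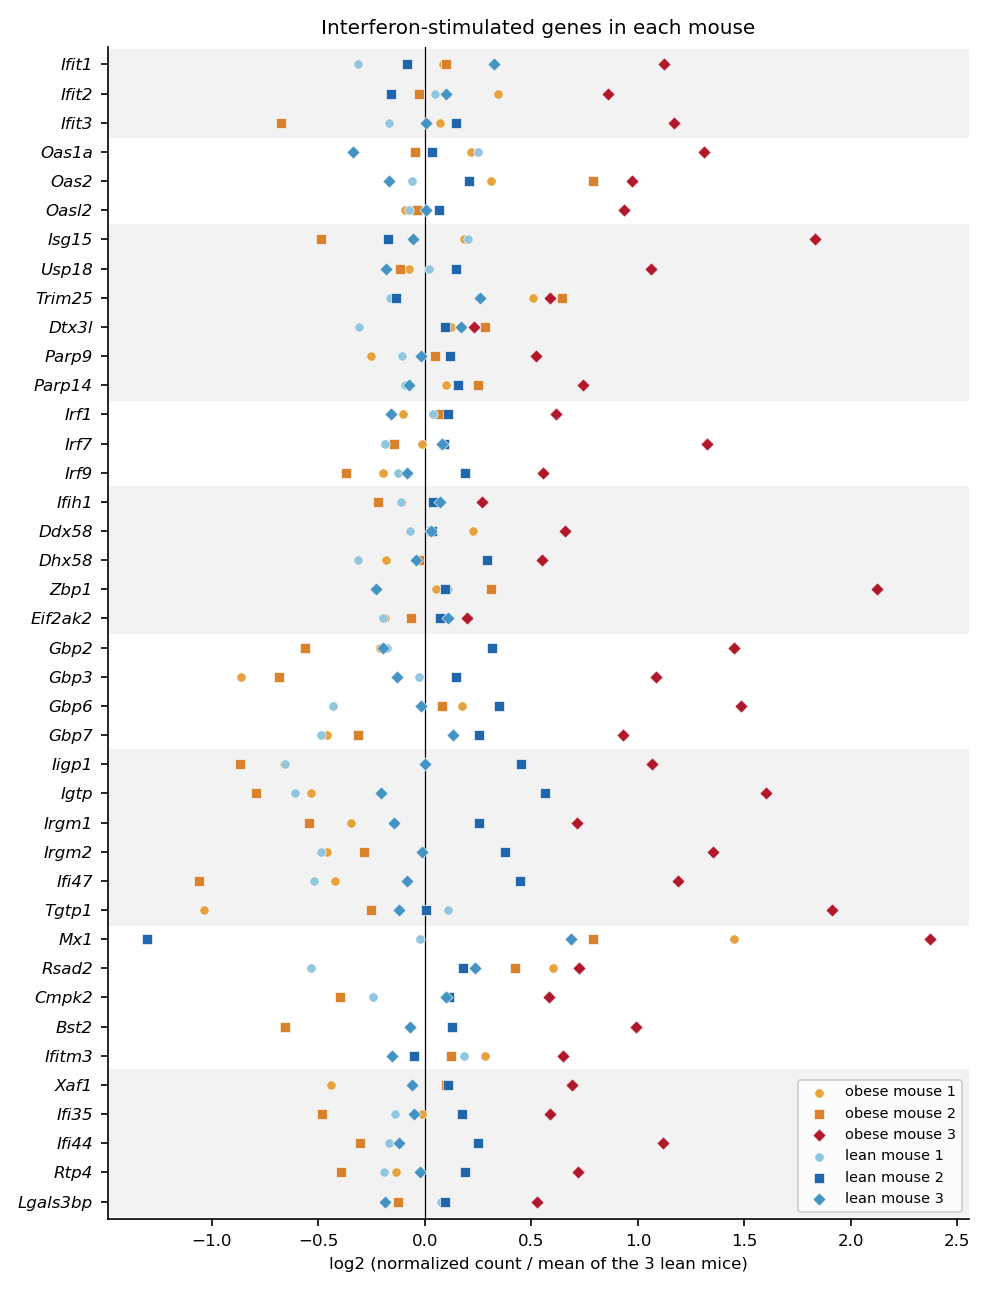
Normalized count of each of the 40 members in each mouse, as a log2 ratio to the mean of the 3 lean mice (horizontal axis), with members grouped by role in shaded bands. Red diamonds (obese mouse 3) lie farthest right in 38 of 40 rows, and the other 5 mice intermingle in most rows.

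**Figure D2:**
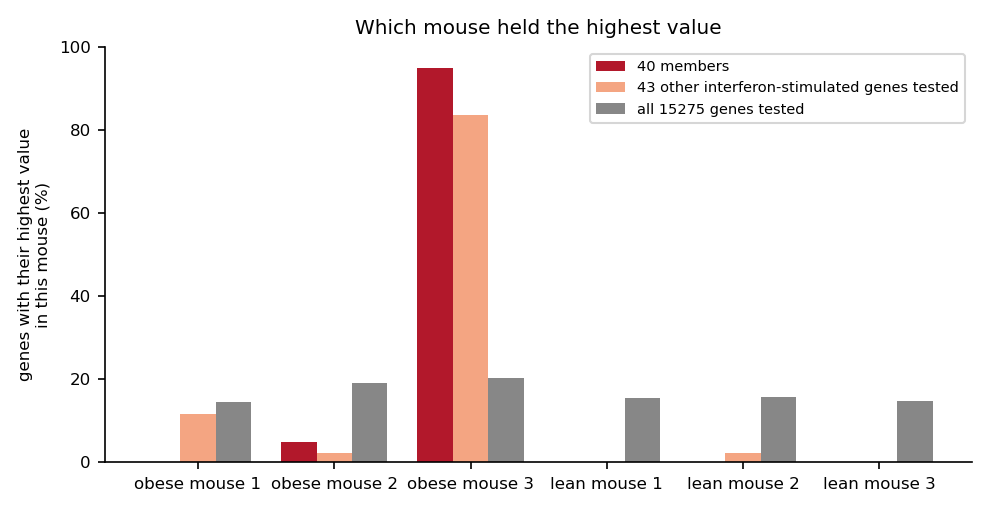
Percentage of genes whose highest value fell in each mouse, for the 40 members, 43 other interferon-stimulated genes and all 15275 genes tested. Obese mouse 3 held the highest value in 95.0% of members, 83.7% of the other interferon-stimulated genes and 20.3% of all genes.

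Without obese mouse 3, 13 of 40 members had a log2 fold change above 0 (background 50.5%), and the median was -0.11. At an unadjusted p under 0.05, 3 members were then higher (background 7.72%) and 5 lower (background 6.84%), and 1 member, Bst2, was lower at an adjusted p under 0.05 (background 0.811%). Obese mice 1 and 2 both lay below every lean mouse in 7 members (Irf9, Gbp2, Gbp3, Iigp1, Irgm1, Tgtp1 and Bst2; background 16.4%) and above every lean mouse in 4 (background 15.7%). These counts without overlap are near or under the shares of all genes. The counts of members lower by unadjusted and adjusted p, 5 and 1 of 40, are above those shares. However, the mouse left out was highest in 38 of these same 40 members, and leaving it out lowers their fold changes. The p-values without obese mouse 3, here and below, therefore cannot show whether members were lower. Left out in turn, each of the other 5 mice left the median between 0.16 and 0.44. The order of the 3 lean mice was also uneven: lean mouse 2 was highest among them in 27 of 40 members (background 29.9%).

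**Figure D3:**
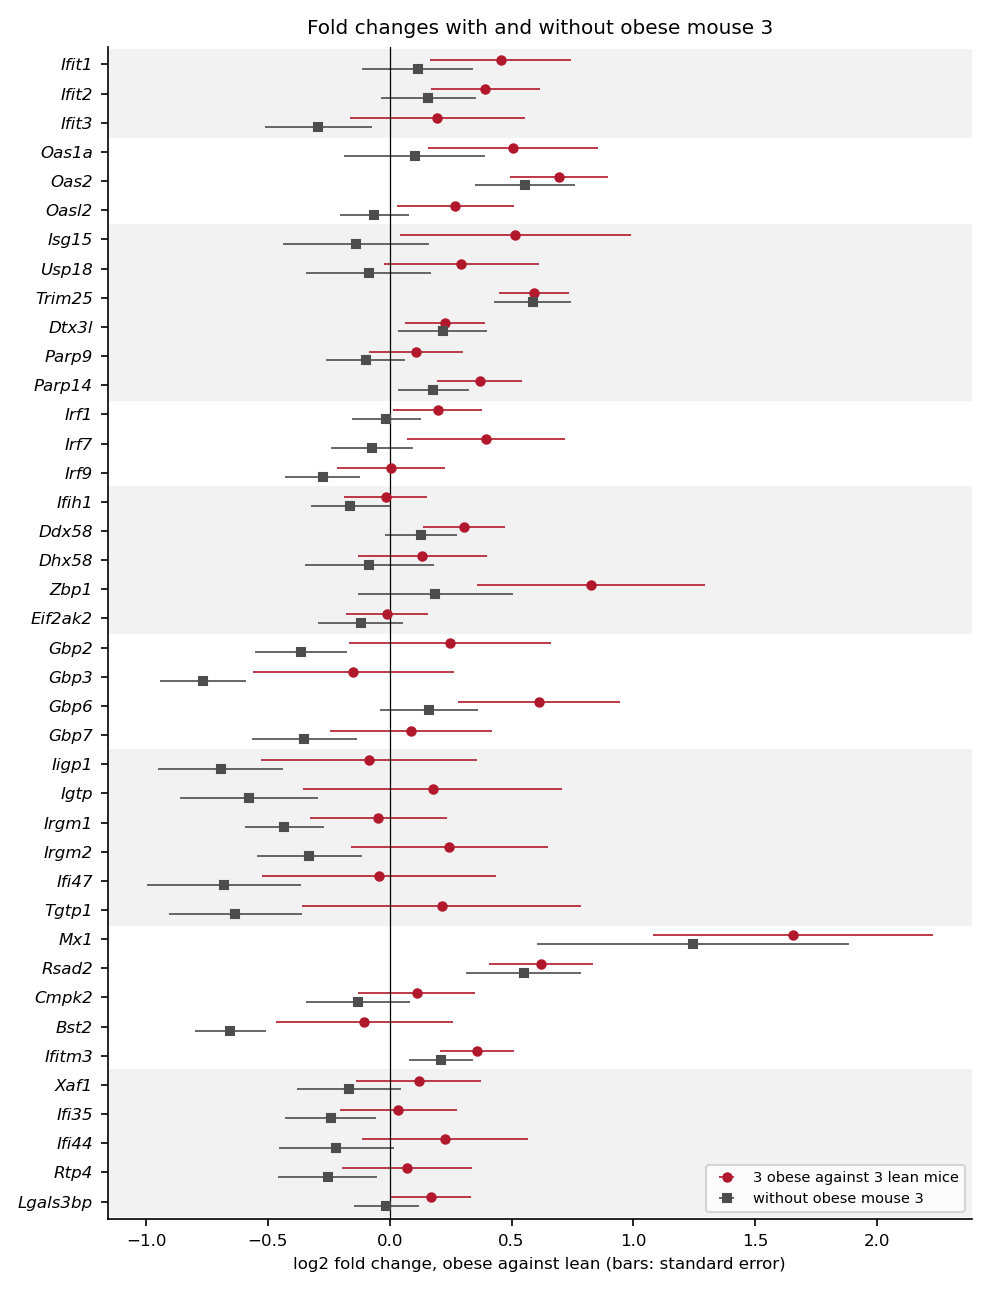
Log2 fold change of each member, obese against lean, from limma with all 6 mice (red circles) and without obese mouse 3 (grey squares). Bars are standard errors. The medians are 0.22 with all mice and -0.11 without obese mouse 3.

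Trim25, Oas2, Rsad2 and Mx1 were the members whose groups did not overlap. Trim25 (chromosome 11, 88999376 to 89020293, GRCm38), the ubiquitin ligase that activates the RNA sensor RIG-I, measured 689, 758 and 729 normalized counts in obese mice 1, 2 and 3, and 433, 441 and 580.4 in lean mice 1, 2 and 3. The obese mice lay close together and all above the lean mice, for a log2 fold change of 0.59 ± 0.14 (SE; limma, adjusted p = 0.0954). Leaving out obese mouse 3 left it at 0.59. Its fold change was the least dependent on that mouse among these 4.

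Oas2 (chromosome 5, 120730333 to 120749853), an oligoadenylate synthetase that switches on RNase L, measured 203, 282.5 and 321 in the obese and 157, 189 and 145 in the lean mice. The lowest obese mouse lay just above the highest lean mouse, and the log2 fold change was 0.70 ± 0.20 (SE; limma, adjusted p = 0.164), or 0.55 without obese mouse 3. Rsad2 (chromosome 12, 26442753 to 26456452) encodes viperin, which makes a chain-terminating nucleotide that stops viral RNA synthesis. It measured 290.3, 257 and 316 in the obese and 132, 217 and 225 in the lean mice. Again no lean value reached an obese one, and the log2 fold change was 0.62 ± 0.21 (SE; limma, adjusted p = 0.259), or 0.55 without obese mouse 3. Mx1 (chromosome 16, 97447035 to 97462907) measured 37.2, 23.5 and 70.4 in the obese and 13.4, 5.5 and 21.9 in the lean mice. The smallest gap between the groups was that between obese mouse 2 and lean mouse 3, and the log2 fold change was 1.65 ± 0.57 (SE; limma, adjusted p = 0.262), or 1.25 without obese mouse 3. For each of the 4, a two-sided exact permutation test gave p = 0.1, the smallest that 3 against 3 mice allow.

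Among the other blockers of the viral cycle, Ifitm3 measured 1858, 1662 and 2394 in the obese and 1733, 1474 and 1373 in the lean mice. Here obese mouse 2 lay below lean mouse 1. Its log2 fold change was 0.36 ± 0.15 (SE; limma, unadjusted p = 0.0386, adjusted p = 0.373). Bst2 measured 274, 274 and 860 in the obese and 413, 473 and 413 in the lean mice. Obese mice 1 and 2 lay below every lean mouse and obese mouse 3 above all of them, and the log2 fold change of -0.11 became -0.65 without obese mouse 3 (limma, adjusted p = 0.0468). In edgeR and DESeq2 the value of Bst2 with all mice was positive, at 0.11. Cmpk2, the nucleotide kinase encoded next to Rsad2, had a log2 fold change of 0.11.

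The immunity-related GTPases and guanylate-binding proteins, which assemble on the vacuoles of intracellular parasites and are classical targets of interferon gamma, set obese mouse 3 apart the most. In this mouse the median ratio to the lean mean was 2.41 over the 6 immunity-related GTPases and 2.43 over the 4 guanylate-binding proteins, whereas the mean of obese mice 1 and 2 lay at 0.648 and 0.768 of the lean mean. Igtp measured 250.1, 209 and 1098 in the obese and 237, 536 and 314 in the lean mice, and Irgm2 measured 454, 513 and 1595 in the obese and 446, 810.3 and 619 in the lean mice. Both genes, which overlap on the same strand, were second highest in lean mouse 2. Tgtp1, described after its values were seen, measured 52.2, 89.7 and 403 in the obese and 115, 107 and 98.4 in the lean mice, which put obese mouse 3 at 5.68 times the mean of obese mice 1 and 2. These are the 3 genes whose promoters hold the paired GAS and ISRE letters. None of the 6 was above the lean mean on the log2 scale without obese mouse 3 (median log2 fold change -0.61), and with all mice their median was 0.07.

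Gbp2, which marks pathogen membranes for lysis, measured 426, 333.5 and 1349 in the obese and 436, 614 and 429.6 in the lean mice. Gbp6 measured 537, 504 and 1334 in the obese and 354, 606 and 470.0 in the lean mice. Obese mouse 3 was more than 2 times the next highest mouse in both. The Gbp6 row carries an identifier that spans the neighbouring Gbp6 and Gbp10 genes, so its reads are not those of Gbp6 alone. Gbp3, described after its values were seen, measured 141, 159 and 543 in the obese and 251, 283 and 234 in the lean mice, and its log2 fold change was -0.15 with all mice and -0.77 without obese mouse 3 (limma, adjusted p = 0.0518). Reads of Tgtp1 and its near copy Tgtp2, of Ifit3 and Ifit3b, and of the Oas1 genes can be divided in ways that depend on the counting, so these levels are uncertain.

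The IFIT proteins sequester viral RNA that lacks the host cap. Ifit1 measured 142, 143 and 291 in the obese and 107, 126 and 167 in the lean mice, and Ifit2 measured 211, 163 and 302 in the obese and 172, 149 and 178 in the lean mice. The groups overlapped in both, with log2 fold changes of 0.46 ± 0.29 and 0.39 ± 0.22 (SE; limma, adjusted p = 0.580 and 0.533). Oas1a measured 72.3, 60.2 and 155 in the obese and 73.9, 63.6 and 49.2 in the lean mice, and only obese mouse 3 lay outside the range of the lean mice on the high side. For Ifit3 and Oasl2, an Oas-like protein, the log2 fold changes were 0.20 and 0.27, and -0.29 and -0.06 without obese mouse 3.

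In the ISG15 pathway, a ubiquitin-like protein is joined to new proteins and removed by the protease Usp18. Isg15, described after its values were seen, measured 76.3, 47.9 and 239 in the obese and 77.3, 59.5 and 64.5 in the lean mice. Obese mouse 3 stood at 3.09 times the next highest mouse, and obese mouse 2 was the lowest of the 6. Parp14, a mono-ADP-ribosyltransferase, measured 451, 500.7 and 705 in the obese and 394, 469 and 400.1 in the lean mice, for a log2 fold change of 0.37 ± 0.18 (SE; limma, adjusted p = 0.437). Dtx3l, a ubiquitin ligase, and its partner Parp9, which share a divergent promoter and overlap on opposite strands, had log2 fold changes of 0.23 and 0.11. Usp18 had one of 0.29, and Usp18, Parp9 and Isg15 were below 0 without obese mouse 3.

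Among the transcription factors, Irf7, the amplifier of type I interferon production, measured 251, 229.5 and 636 in the obese and 223, 270.3 and 268 in the lean mice. Its log2 fold change was 0.39 ± 0.32 (SE; limma, adjusted p = 0.684), and -0.07 without obese mouse 3. Irf1 and Irf9 had log2 fold changes of 0.20 and 0.00, and both were highest in obese mouse 3. The gene Irf7 overlaps Phrf1 on the opposite strand, and whether strand was used in counting was not stated.

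The cytosolic sensors had the lowest median ratio of obese mouse 3 to the lean mean among the role groups, at 1.47. Zbp1, a sensor of Z-form nucleic acid that triggers necroptosis, was the exception: it measured 45.2, 54.1 and 190 in the obese and 47.0, 46.5 and 37.2 in the lean mice, which put obese mouse 3 at 3.51 times the next highest mouse. Ddx58 (RIG-I) measured 384, 336.5 and 518 in the obese and 313.5, 337 and 336 in the lean mice. Obese mouse 2 lay within the lean range, and the log2 fold change was 0.30 ± 0.17 (SE; limma, adjusted p = 0.520). Ifih1 (MDA5) and Eif2ak2 (the kinase PKR, which halts translation) had log2 fold changes of -0.02 and -0.01, and Dhx58 (LGP2) one of 0.13. Of the remaining members, Lgals3bp measured 1321, 1140.2 and 1789 in the obese and 1310.0, 1330 and 1092 in the lean mice. Xaf1, Ifi35, Ifi44 and Rtp4 had log2 fold changes between 0.04 and 0.23, and all 5 were below 0 without obese mouse 3.

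Members with the ISRE core letters had a median ratio of obese mouse 3 to the lean mean of 2.12 (n = 19, range 1.15 to 3.77), and those with a window but without these letters one of 1.53 (n = 11, range 1.17 to 2.51). The ranges overlapped, and no test was made of this description.

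Upstream in the pathway, interferon transcripts were at or near 0. Of 21 ligand genes, 19 were at 0 in all 6 mice, Ifnb1 among them, and no ligand exceeded 5.47 normalized counts in any mouse. Interferon gamma (Ifng) measured 0, 0 and 3.4 in the obese and 0, 3.4 and 5.5 in the lean mice, so a difference was not detectable at this depth. All 6 receptor genes were measured and none passed the adjusted threshold. Ifngr2, the signaling chain of the interferon gamma receptor, measured 1572, 1576 and 1892 in the obese and 2173, 2465 and 2041 in the lean mice, with every obese below every lean mouse (log2 fold change -0.41 ± 0.12; limma, unadjusted p = 0.0076, adjusted p = 0.184). Il10rb, the chain shared with the interferon lambda receptor, also lay lower without overlap (log2 fold change -0.25; limma, adjusted p = 0.368).

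Of the transducers, Stat2 measured 349.6, 459.9 and 767 in the obese and 397, 407 and 438 in the lean mice. It was highest in obese mouse 3, as most members were, with a log2 fold change of 0.27. Jak1 and Jak2 had log2 fold changes of 0.08 and 0.07, and Tyk2 one of -0.13. Stat3, which acts mainly downstream of interleukin 6, had one of 0.38 with no overlap between the groups (limma, adjusted p = 0.235). Among 7 feedback inhibitors, Socs3 had a log2 fold change of 0.94 (limma, adjusted p = 0.110) and the phosphatase Ptpn11 one of 0.66 (limma, adjusted p = 0.0657), while Socs1, the inhibitor most directed at interferon signaling, had one of -0.33. Of 15 sensing and adaptor genes, none passed the adjusted threshold. The smallest unadjusted p-values were those of Tlr7, the endosomal sensor of single-stranded RNA (log2 fold change 0.87; limma, adjusted p = 0.196), and the kinase Tbk1 (0.38; limma, adjusted p = 0.301).

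A second list of 45 further interferon-stimulated genes, of which 43 were tested, showed the same mouse on top: obese mouse 3 was highest in 36 of 43 (20.3% of all genes), and 36 of 43 had a log2 fold change above 0 (50.8% of all genes). In this list 1 gene rose (0.484% of all genes were called higher), Ifi205, an Aim2-like DNA-binding protein, at 501, 402 and 554 in the obese and 265, 264 and 221 in the lean mice (log2 fold change 0.95 ± 0.16; limma, adjusted p = 0.0310). Its relative Ifi204 had a log2 fold change of 0.91 (limma, adjusted p = 0.0591). Unlike most members, both separated the groups in all mice. Chosen after their values were seen, Cxcl9, a chemokine that draws T cells and is a marker of interferon gamma, measured 14.1, 23.5 and 199.9 in the obese and 29.1, 86.2 and 33.9 in the lean mice, and Tap1, the peptide transporter of antigen presentation, measured 219, 235 and 839 in the obese and 259, 413 and 348 in the lean mice. Over all 77 tested genes of the pathway outside the 40 members, 60 had a log2 fold change above 0 (50.8% of all genes). Of these 77, 1 was called higher after adjustment (0.484% of all genes) and 0 lower (0.262%). Without obese mouse 3, 36 of the 76 then tested were above 0 (50.5% of all genes).

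Markers of T and NK cells were also highest in obese mouse 3. The summed level of 10 such markers was 47.2, 40.8 and 207 normalized counts in the obese and 73.9, 52.0 and 52.5 in the lean mice. Of the 10, 8 were highest in obese mouse 3 (20.3% of all genes tested). Among the lean mice, lean mouse 1 had the highest sum of these markers and the lowest sum of the members. Lean mouse 2 had the highest sum of the members, while its sum of these markers was level with that of lean mouse 3. The marker sums rest on only 66, 76 and 48 reads in lean mice 1, 2 and 3. Only 3 of the 10 passed the filter on low values. Lck, the kinase of the T cell receptor, reached 46.6 in that mouse and 17.1 at most in the others, and Cd4 was highest there too. Cd3d, a defining chain of that receptor, did not pass the filter and was chosen after its values were seen. It was at 20.4 in obese mouse 3 and at 0 in 3 of the other mice. The chain Cd3e was at 15.9 in obese mouse 3 and at 14.6 in lean mouse 1. The 2 markers not highest in obese mouse 3, Ncr1 and Gzma, were at 0 and 5.7 there. The 10 macrophage markers summed to 12561, 11147 and 11424 in the obese and 10145, 9628 and 7838 in the lean mice. Of these, 9 of 10 were higher in log2 fold change (50.8% of all genes). Cd163 and Itgam, 2 of the 10, passed the adjusted threshold (0.484% of all genes were called higher). Obese mouse 3 was not the highest of the sums, of which Lyz2 was the largest part. Its mean log2 level of these markers was the highest, at 9.38, against 9.24 and 9.17 in obese mice 1 and 2 and 8.97 in lean mouse 1, the highest lean mouse. Each obese mouse was highest in 3 of the 10. Cd14 and Fcgr1, chosen after their values were seen, were in obese mouse 3 at 1.81 and 1.70 times the next highest mouse. Adgre1 was highest there by less. Cd163, Mrc1, Cd68 and Csf1r, in contrast, were lower in obese mouse 3 than in obese mice 1 and 2. Cd163 measured 1040.7, 1272.7 and 803.0 in obese mice 1, 2 and 3, and Mrc1 measured 954.3, 1152.4 and 811.0. The 5 B cell markers summed to between 23.5 and 42.2 in every mouse, and obese mouse 3 was not the highest for the summed neutrophil, adipocyte, fibroblast or endothelial markers either. The first 2 of these sums were higher in every obese than in every lean mouse (neutrophil, 55.1 to 83.4 against 28.0 to 37.0, and adipocyte, 7812 to 14189 against 3503 to 6928), as was the endothelial sum (14749 to 15644 against 12594 to 13176). Of the 5 neutrophil markers, only Csf3r passed the filter on low values. Fabp4 was the largest part of the adipocyte sum. In that list Fabp4 and Ucp1 had every obese above every lean mouse (8.86% of all genes). The groups overlapped in Adipoq, Plin1, Cfd, Retn, Pck1 and Lep, and the log2 fold change of Lep was -1.41. Within the endothelial list, Pecam1 (log2 fold change 0.57) and Tie1 (0.16) separated the groups in the same direction (8.86% of all genes). The groups overlapped in Cdh5 (0.04), Kdr (0.14) and Egfl7 (-0.19). The 7 atrial cardiomyocyte markers, in contrast, summed to 685710.0, 805030.0 and 1273300.0 in the obese and 1126000.0, 1065400.0 and 1077000.0 in the lean mice. Of the 7, 4 were highest in obese mouse 3 (20.3% of all genes tested). Among them Actc1, cardiac actin, chosen after its values were seen, reached 201539 in that mouse and 100697 at most in the others. Nppa, Myh6 and Myl4 were there only 1.09, 1.04 and 1.01 times the next highest mouse. Myl7 was not highest there, and Sln and Tnnt2 lay below every lean mouse. Siglech, the defining marker of plasmacytoid dendritic cells, did not exceed 24.5. The part of these cell types in the levels of the members was not tested.

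**Figure D4:**
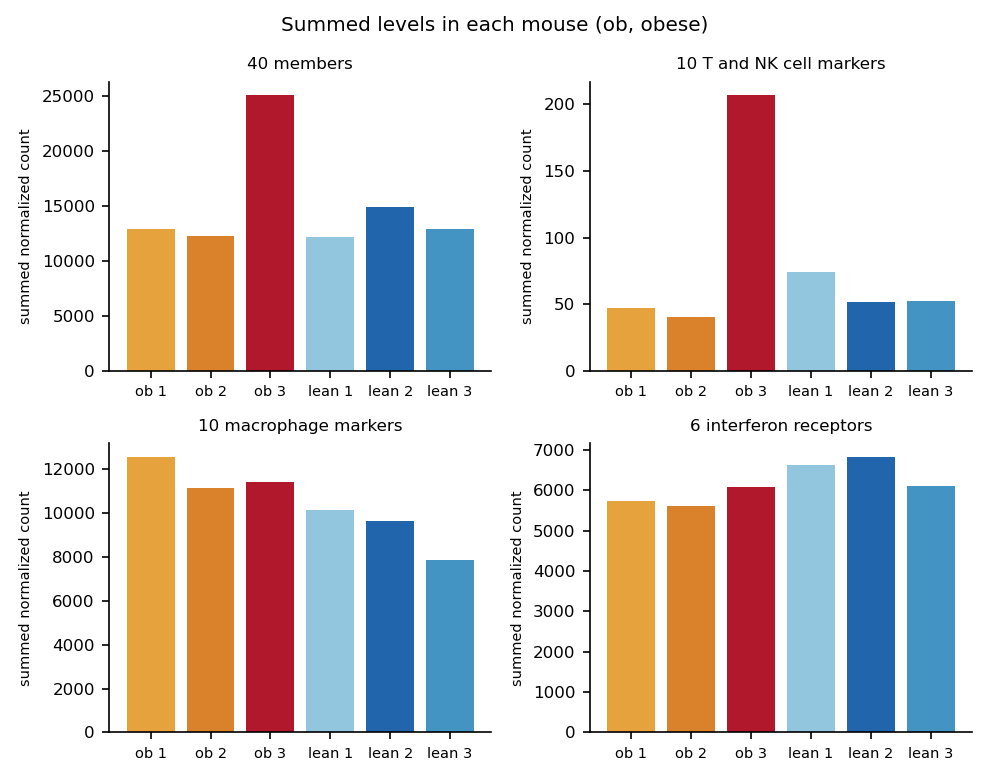
Summed normalized count in each mouse (vertical axes from 0) of the 40 members, 10 T and NK cell markers, 10 macrophage markers and 6 interferon receptors. Obese mouse 3 stands above the other mice for the members (25050.0 against 12191 to 14914) and for the T and NK cell markers (207 against 40.8 to 73.9), but not for the macrophage markers or the receptors. By mean log2 level, not drawn here, it was also the highest for the macrophage markers.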

How the data were processed

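RNA of atrial tissue from 3 lean and 3 obese mice was analysed from the 1 deposited table. In the authors' processing, reads were aligned with STAR to GRCm38 (Ensembl 79), quantified with Salmon and compared with DESeq2, and the deposited values are normalized counts, a signal made by dividing the reads per gene by 1 size factor per sample. Columns of the authors' own comparison (mean, fold change, its error, statistic, p-values and a ranking metric) were not used. Whole reads were recovered from the steps of the low values (100.0% of values within 0.01 of a whole read in every sample), and 1 row without a gene name was left out. Genes with a mean of at least 10 were tested on log2(normalized count + 1) with limma 3.58.1 (empirical Bayes with a variance trend), obese against lean, with Benjamini-Hochberg adjustment over 15275 genes and a threshold of 0.05. Fold changes on this scale understate the change of low genes. Intervals of counting error play no part in the tests, and the limit of 3 reads covers counting error only. On the recovered reads, edgeR 4.0.16 with TMM factors called 87 genes and DESeq2 1.42.0 called 470, against 114 by limma. In data simulated for this comparison over 15110 genes, limma recovered 61 of 100 genes made with a log2 fold change of 1 and 89 of 100 with 2, and called 3 unchanged genes. Replicates of a group differed by more than sampling noise. Gene symbols, written in capitals in the table, were matched without regard to case, and 39 of 40 members carry the same name in GENCODE M21 for their identifier. Promoter windows came from RefSeq (GRCm38.p6).

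Members and gene lists were chosen with earlier results of these data known. Values in every mouse were given for the 12 members with the smallest unadjusted p, the 5 most abundant per kilobase and the member of each role with the smallest p, and other members given in full are named as chosen after their values were seen. Of other pathway genes, those past the adjusted threshold and up to 2 per list with the smallest p were named, with Stat2, Ifnb1 and Ifng. Cxcl9 and Tap1 were chosen after their values were seen, and further pathway genes were given only by their log2 fold change. Alternatives were other normalizations, filters, pseudocounts and tools, a replicate block and each mouse left out. One gene that this rule also names is not reported here.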

Additional observations from a re-analysis of the deposited data

How the results depend on the processing

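With 3 mice in each group, the direction of many members depended on 1 mouse. Without obese mouse 3 the median log2 fold change of the members turned from 0.22 to -0.11, the members above 0 went from 33 to 13, and 1 member (Bst2) was called lower where 0 had been. Over the 6 fits with 1 mouse left out, the median lay between -0.11 and 0.44, the members above 0 between 13 and 40, and the members higher at an unadjusted p under 0.05 between 3 (without obese mouse 3 or lean mouse 2, where 7.72% and 4.69% of all genes were) and 9 (without obese mouse 2, 5.16%), against 5 with all mice (6.66%). Members called higher after adjustment stayed at 0 in all 6, and those called lower ranged from 0 to 1. The sign changed in 27 members when 1 mouse was left out, with these lowest and highest log2 fold changes: Bst2 (-0.65 to 0.17), Cmpk2 (-0.13 to 0.36), Dhx58 (-0.084 to 0.29), Eif2ak2 (-0.12 to 0.073), Gbp2 (-0.37 to 0.64), Gbp3 (-0.77 to 0.20), Gbp7 (-0.35 to 0.34), Ifi35 (-0.24 to 0.29), Ifi44 (-0.22 to 0.49), Ifi47 (-0.68 to 0.43), Ifih1 (-0.16 to 0.082), Ifit3 (-0.29 to 0.63), Igtp (-0.58 to 0.62), Iigp1 (-0.69 to 0.27), Irf1 (-0.014 to 0.35), Irf7 (-0.074 to 0.66), Irf9 (-0.28 to 0.19), Irgm1 (-0.43 to 0.20), Irgm2 (-0.33 to 0.58), Isg15 (-0.14 to 1.01), Lgals3bp (-0.014 to 0.31), Oasl2 (-0.063 to 0.45), Parp9 (-0.10 to 0.29), Rtp4 (-0.25 to 0.30), Tgtp1 (-0.63 to 0.83), Usp18 (-0.087 to 0.50) and Xaf1 (-0.17 to 0.39).

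With all mice, 342 of 359 fold changes of single members kept their sign and their side of the threshold under other settings, and 16 changed sign. In edgeR with TMM, edgeR with RLE and DESeq2, the values became 0.11, 0.11 and 0.11 for Bst2, 0.12, 0.12 and 0.13 for Gbp3, 0.20, 0.20 and 0.22 for Ifi47, 0.12, 0.12 and 0.13 for Iigp1, and 0.044, 0.046 and 0.049 for Irgm1, and quantile normalization gave -0.018 for Irf9. DESeq2 called 1 member higher (Trim25) where 0 had been. Over all genes, limma called 114 with all mice, 0 without a variance trend (1717 at an unadjusted p under 0.05), 14 (without lean mouse 2) to 342 (without obese mouse 3) with 1 mouse left out, and DESeq2 called 470. Whether the replicate numbers of the titles paired the mice cannot be settled from 3 mice in each group. The deviations of same-numbered mice correlated at 0.116, -0.027 and -0.004, and those of the other pairs at -0.147 to 0.16. A replicate block left 0 members called, 6 higher at an unadjusted p under 0.05 (6.45% of all genes) and a median of 0.22, with 157 genes called overall. Depth limits the ligands most, where no gene exceeded 5 reads in any mouse.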
